A study of Rattus norvegicus with 12 samples.

Results

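The 8 genes described here, Star, Tspo, Cyp11a1, Fdx1, Fdxr, Cyp17a1, Por and Cyb5a, belong to the path from cholesterol to androgen. Their proteins serve cholesterol delivery to the mitochondrion (for Tspo, as long proposed), the P450 steps of CYP11A1 and CYP17A1, or the electron supply of these steps. Other enzymes of the path are listed further below. The 8 genes were taken by their symbols from a table of 30045 gene rows, and all 8 symbols matched 1 row each. The cells were theca-interstitial cells, which form the outer layer of the ovarian follicle and make its androgen, isolated from wild type female Sprague Dawley rats of postnatal day 30. They were kept in McCoys 5A medium on plates coated with human fibronectin and treated for 48 h. The 4 control cultures received vehicle, 4 cultures received rat IL-1b (interleukin-1β, IL-1β below), a cytokine of inflammation whose dose the labels do not give separately, and 4 received lipopolysaccharide (LPS), a bacterial cell wall molecule, at 1 µg/ml. The title of the study names androgen production as a question, so each treatment was compared with vehicle and LPS was compared with IL-1β. The values used here are RNA counts, and none measures androgen itself. The labels do not say whether the 4 libraries of a group came from separate animals or isolations, and the p-values below reflect the spread of these libraries alone, which may be technical.

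Steroid synthesis starts when cholesterol crosses to the inner mitochondrial membrane, a step that depends on the StAR protein. There the P450 enzyme CYP11A1 cuts the side chain of cholesterol to give pregnenolone, with electrons that pass from NADPH through ferredoxin reductase (Fdxr) and ferredoxin (Fdx1). In the endoplasmic reticulum CYP17A1 then makes androgen from pregnenolone or progesterone, with electrons from P450 reductase (Por) and with cytochrome b5 (Cyb5a) favouring its lyase reaction, and in the follicle this enzyme is the hallmark of theca cells.

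The libraries held 20873934 to 32090924 counts in the control group, 23193408 to 26836323 with IL-1β and 25643226 to 28698783 with LPS. Levels are given as CPM, the counts of a gene after all libraries were scaled to the same total, which allows a gene to be compared between libraries but not with a gene of another length. In a principal component analysis of all genes tested, the LPS libraries 3 and 4 lay apart from the LPS libraries 1 and 2 on the component that separated LPS from IL-1β (24.7 and 21.3 against 10.5 and 12.6, with 12.5% of the variance). Values without LPS 3 and 4 therefore stand beside the LPS results of each gene and ratio below. Without them 7 of the 8 genes were still called against control, beside 6504 of all genes tested. Against IL-1β 5 of the 8 were called, beside 1979 of all genes tested. All 14 theca-interstitial markers listed had counts in every group, but in control cultures Cyp17a1 was at a mean of 0.537 CPM. Insl3, a theca peptide hormone, was low throughout (0.229 ± 0.0495 CPM in control, 0.491 ± 0.161 with IL-1β and 0.436 ± 0.114 with LPS, SD, n = 4). In control it had 4 to 8 counts a library. The 12 granulosa markers listed also had counts in every group, with a summed level of 1602 to 1685 CPM in control. Most of that sum was Gja1 (mean 668 CPM), Serpine2 (395) and Inha (280), while Fshr was at 2.97 and Amh at 1.61 CPM. The sum therefore says little about the number of granulosa cells.

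With IL-1β all 8 genes were higher than in vehicle at an adjusted p under 0.05 (edgeR quasi-likelihood test, Benjamini-Hochberg adjustment over 17330 genes), where 47.7% of all genes tested were called, 24.7% higher and 23% lower. With LPS 7 of the 8 were higher, beside 42.5% of all genes called, 22.5% higher and 20% lower. The median log2 fold change of the 8 genes was 1.40 with IL-1β and 0.93 with LPS, against 0.01 over all genes tested in both comparisons. Both comparisons used the same 4 control libraries, so the second is not independent of the first. The sizes ran from 29.1-fold for Cyp17a1 to 1.09-fold for Tspo with IL-1β, and from 8.92-fold for Cyp11a1 to 1.08-fold for Tspo with LPS. Rises of at least 2-fold were called for 5 of the 8 genes with IL-1β and for 4 with LPS, beside 3.84% and 2.3% of all genes tested. The plot of levels in every library shows both the genes whose groups stand far apart and those whose groups nearly touch.

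**Figure D1:**
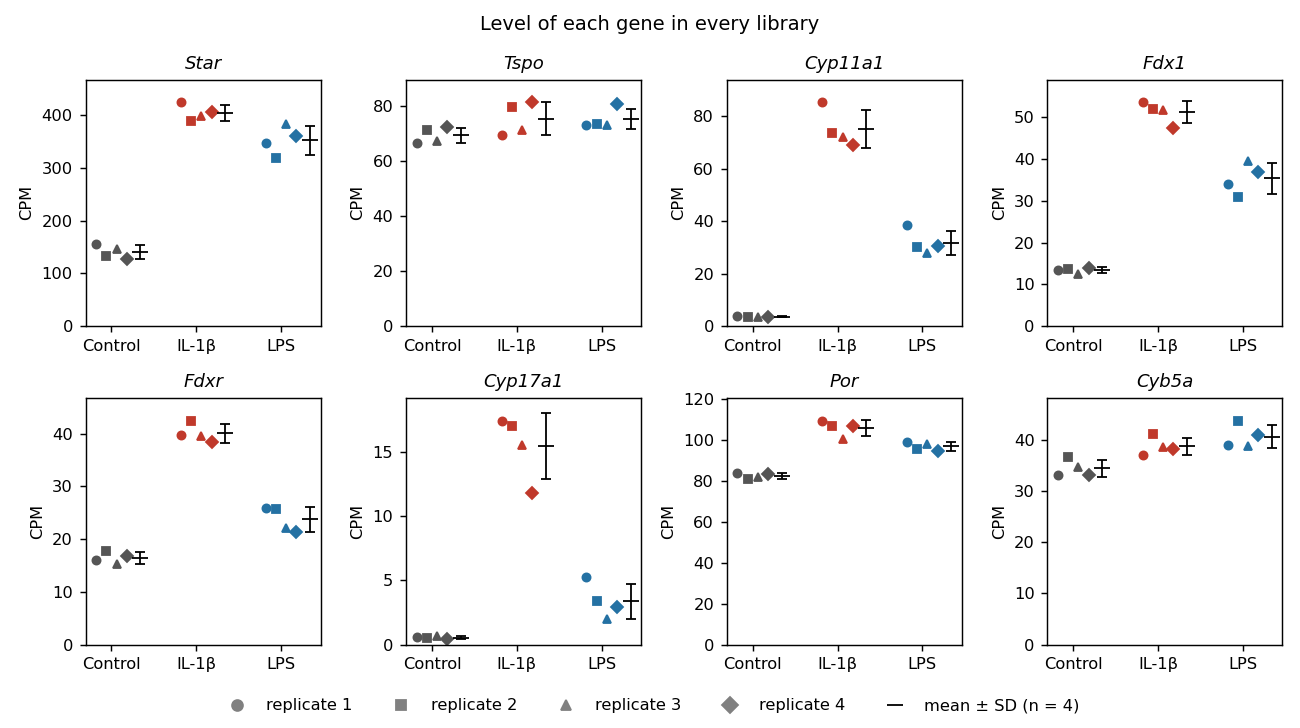
Level of each of the 8 genes in every library, in CPM on a linear axis that starts at 0, with 1 panel per gene. Symbols mark replicate libraries 1 to 4 of the control (grey), IL-1β (red) and LPS (blue) groups, and bars give the mean ± SD (n = 4). Cyp11a1 rises from a mean of 3.55 CPM to 75.1 with IL-1β and 31.7 with LPS, while the Tspo groups lie between 66.4 and 81.3 CPM.

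The genes of cholesterol delivery are given first. Star, whose product moves cholesterol to the inner mitochondrial membrane, stood at 156, 134, 147 and 127 CPM in control libraries 1 to 4. It stood at 425, 389.7, 398 and 406 CPM with IL-1β, and at 348, 318, 384 and 361 CPM with LPS. The 3 groups did not overlap: every treated library was above every control library, and every LPS library was below every IL-1β library. Star rose 2.88-fold with IL-1β (95% interval 2.57 to 3.22; log2 fold change 1.52 ± 0.07, where ± after a log2 fold change is its SE; adjusted p = 1.43e-08). It rose 2.51-fold with LPS (2.24 to 2.80; 1.33 ± 0.07, adjusted p = 6.14e-08), and without LPS 3 and 4 its log2 fold change was 1.24. The difference between LPS and IL-1β was -0.20 ± 0.07 (interval -0.35 to -0.04, adjusted p = 0.0686), which did not pass the threshold. It passed in 5 of 19 alternatives (adjusted p from 0.00700 to 0.153 over the 19), among them without LPS 3 (-0.24), with DESeq2 (-0.20), with limma-voom (-0.20) and with only the 8 libraries compared (-0.20). It was -0.28 without LPS 3 and 4 and did not pass.

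Tspo encodes the translocator protein of the outer mitochondrial membrane, which binds cholesterol and was long proposed as its importer. Its levels were 66.4, 71.0, 67.2 and 72.2 CPM in control, 69.3, 79.4, 71.2 and 81.3 CPM with IL-1β and 73.1, 73.4, 73.0 and 80.5 CPM with LPS. Control and IL-1β libraries overlapped, while all LPS libraries lay above all control libraries by a narrow gap. Tspo was 1.09-fold higher with IL-1β (0.12 ± 0.05, adjusted p = 0.0482), a call that 8 of 18 alternative settings lost (adjusted p from 0.00320 to 0.179). Those 8 included leaving out control 1 (0.10), control 2 (0.13), control 3 (0.11), IL-1β 2 (0.09) or IL-1β 4 (0.08). With LPS it was 1.08-fold higher (0.12 ± 0.05, adjusted p = 0.0577), which was not called. It was called in 5 of 19 alternatives (adjusted p from 0.00508 to 0.264 over the 19), among them without control 4 (0.14), scaled by library size alone (0.15), with no filter on low counts (0.12) and with only the 8 libraries compared (0.11). Between LPS and IL-1β the difference was -0.00, with an interval of -0.10 to 0.10 on the log2 scale. Tspo without LPS 3 and 4 stood at 0.08 against control and -0.04 against IL-1β, and neither was called. Star rose more than Tspo: the log2 ratio of Tspo to Star counts within a library went from -1.02 ± 0.19 (SD, n = 4) in control to -2.43 ± 0.15 with IL-1β and -2.23 ± 0.12 with LPS.

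Cyp11a1, Fdx1 and Fdxr, the genes of the side-chain cleavage system, all rose in RNA with both treatments, but by unequal amounts. For these 3 genes the 250 bases before the transcription start are shown because together they encode this system. The sequences are those of RefSeq on GRCr8, where promoters of 5 of the 8 genes were matched (Cyp11a1, Fdx1, Fdxr, Por and Cyb5a), and are written 5′ to 3′ on the gene's strand up to the base before the start. Cyp11a1 is at chr8:67318415-67318664 on the plus strand, Fdx1 at chr8:61183646-61183895 on the minus strand and Fdxr at chr10:101015536-101015785 on the minus strand. Capitals mark AGGTCA, the core motif of many nuclear receptors, and GGGCGG, the box bound by Sp1, on either strand.
Cyp11a1: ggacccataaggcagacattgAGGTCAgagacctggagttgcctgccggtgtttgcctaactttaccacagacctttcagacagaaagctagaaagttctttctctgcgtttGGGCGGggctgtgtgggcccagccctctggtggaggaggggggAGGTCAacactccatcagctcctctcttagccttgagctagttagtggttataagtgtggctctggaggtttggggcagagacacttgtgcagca
Fdx1: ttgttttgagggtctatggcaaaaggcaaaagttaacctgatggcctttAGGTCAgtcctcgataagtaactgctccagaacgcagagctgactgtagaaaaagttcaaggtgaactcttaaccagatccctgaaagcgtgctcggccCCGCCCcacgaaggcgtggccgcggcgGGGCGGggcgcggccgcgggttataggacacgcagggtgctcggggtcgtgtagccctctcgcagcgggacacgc
Fdxr: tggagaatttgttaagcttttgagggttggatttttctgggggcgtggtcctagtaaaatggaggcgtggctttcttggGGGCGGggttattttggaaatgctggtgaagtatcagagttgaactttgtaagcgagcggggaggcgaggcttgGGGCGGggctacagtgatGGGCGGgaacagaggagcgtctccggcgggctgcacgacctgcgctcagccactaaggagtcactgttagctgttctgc
AGGTCA began 229 and 95 bases before the start of Cyp11a1 and 201 bases before that of Fdx1, was not in the Fdxr window, and lay on the opposite strand 217 bases before the start of Por. It was searched after the sequences had been seen, and 14.1% of the 33469 promoter windows of this length hold it. GGGCGG was in all 5 windows, and 30.5% of all windows hold it. The longer steroidogenic factor 1 motif AAGGTCA, which contains AGGTCA, was in 3.99% of all windows and in none of the 5. None of the other motifs searched on both strands was in the 5 windows. These were AGATAA, bound by GATA factors and held by 10.3% of all windows, and TATAAA, the TATA box, held by 12.9%. The cAMP response element TGACGTC was in 2.80% of all windows. The AP-1 motif TGANTCA was in 6.34%, and the NF-kB motif in 4.36%. GC content was 54.4% for Cyp11a1, 59.2% for Fdx1 and 55.6% for Fdxr, against a median of 51.2% over all windows.

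Cyp11a1, the enzyme that makes pregnenolone, was at 3.90, 3.43, 3.56 and 3.29 CPM in control libraries. With IL-1β it was at 85.4, 73.7, 72.2 and 69.2 CPM, and with LPS at 38.4, 30.0, 28.0 and 30.5 CPM. Its 3 groups were far apart and did not overlap, and LPS 1 was the highest of the LPS libraries. The gene rose 21.1-fold with IL-1β (interval of the log2 fold change 4.12 to 4.68; 4.40 ± 0.13, adjusted p = 2.25e-11) and 8.92-fold with LPS (interval of the log2 fold change 2.85 to 3.46; 3.16 ± 0.14, adjusted p = 1.81e-09). It was 2.37-fold lower with LPS than with IL-1β (-1.24 ± 0.09, adjusted p = 1.73e-06). Without LPS 3 and 4 its log2 fold change was 3.26 against control and -1.14 against IL-1β. In these bulk cultures fewer cells that express a gene and less of its RNA per cell cannot be told apart.

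Fdx1, the iron-sulphur protein that carries single electrons to mitochondrial P450 enzymes, was at 13.5, 13.7, 12.5 and 14.0 CPM in control. It was at 53.7, 52.0, 51.9 and 47.4 CPM with IL-1β and at 34.2, 31.0, 39.6 and 36.8 CPM with LPS. All IL-1β libraries exceeded all LPS libraries, and all of those exceeded control. Fdx1 rose 3.79-fold with IL-1β (1.92 ± 0.06, adjusted p = 2.79e-17) and 2.62-fold with LPS (1.39 ± 0.07, adjusted p = 2.87e-14), with a difference of -0.54 ± 0.06 between LPS and IL-1β (adjusted p = 3.46e-07). The related ferredoxin gene Fdx1l, whose product serves iron-sulphur cluster assembly, did not pass the threshold with either treatment (0.08 ± 0.05 and 0.02 ± 0.05), and was picked out after its values were seen.

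Fdxr, the flavoenzyme that reduces ferredoxin, was at 16.0, 17.7, 15.2 and 16.8 CPM in control libraries, 39.7, 42.5, 39.6 and 38.4 CPM with IL-1β and 25.9, 25.7, 22.2 and 21.3 CPM with LPS. Again no 2 groups overlapped. Fdxr rose 2.43-fold with IL-1β (1.28 ± 0.06, adjusted p = 7.00e-16) and 1.44-fold with LPS (0.53 ± 0.06, adjusted p = 1.09e-07). LPS stood 1.69-fold below IL-1β (-0.75 ± 0.06, adjusted p = 3.30e-10). LPS 3 and 4 were the lowest LPS libraries for Fdxr and the highest for Fdx1 and Star, so leaving them out moved Fdxr up to 0.65 and Fdx1 down to 1.27 against control. Against IL-1β the values without them were -0.64 for Fdxr and -0.66 for Fdx1.

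Androgen synthesis itself showed the widest spread. Cyp17a1, whose hydroxylase and lyase reactions yield androgen, was barely present in control, at 0.571, 0.546, 0.634 and 0.395 CPM, which stand for 12 to 18 counts a library. It reached 17.5, 17.1, 15.6 and 11.8 CPM with IL-1β and 5.23, 3.43, 1.99 and 2.90 CPM with LPS. No groups overlapped, yet the LPS libraries differed up to 2.63-fold among themselves (51 to 143 counts, coefficient of variation 40.3%). Cyp17a1 rose 29.1-fold with IL-1β (18.2 to 46.6; 4.86 ± 0.31, adjusted p = 1.12e-07) and 6.39-fold with LPS (3.50 to 11.7; 2.68 ± 0.39, adjusted p = 1.96e-04). LPS was 4.56-fold below IL-1β (-2.19 ± 0.21, adjusted p = 3.27e-05). Without LPS 3 and 4, or with any single library left out, the calls held, with log2 fold changes over the alternatives of 2.39 to 3.02 for LPS against control and -2.47 to -1.84 for LPS against IL-1β. The highest and lowest of these, 3.02 and -1.84, were those without LPS 3 and 4.

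Por, the reductase that feeds electrons to every microsomal P450 enzyme, had levels of 84.0, 80.8, 81.7 and 83.4 CPM in control, 109, 107, 101 and 107 CPM with IL-1β and 98.9, 95.7, 98.1 and 94.4 CPM with LPS. The groups were close but did not overlap. The gene rose 1.28-fold with IL-1β (0.36 ± 0.03, adjusted p = 1.52e-10) and 1.17-fold with LPS (0.23 ± 0.03, adjusted p = 7.72e-07), and was 1.09-fold lower with LPS than with IL-1β (-0.13 ± 0.03, adjusted p = 0.00317). Leaving out LPS 3 and 4 gave 0.24 and -0.12, both called.

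Cyb5a, the cytochrome that promotes the lyase reaction of CYP17A1, was at 33.1, 36.7, 34.7 and 33.1 CPM in control, 36.9, 41.0, 38.5 and 38.3 CPM with IL-1β and 38.9, 43.7, 38.8 and 41.0 CPM with LPS. Every treated library was above every control library, but the treated groups overlapped each other. Cyb5a rose 1.13-fold with IL-1β (0.17 ± 0.05, adjusted p = 0.00442) and 1.18-fold with LPS (0.24 ± 0.05, adjusted p = 1.29e-04). The difference between LPS and IL-1β was 0.07 ± 0.05 (interval -0.03 to 0.17, adjusted p = 0.307) and was not called. Leaving out LPS 3 and 4 gave 0.27 against control and 0.10 against IL-1β, with the same calls.

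Set directly against IL-1β, LPS gave lower levels of 5 of the 8 genes, Cyp17a1, Cyp11a1, Fdxr, Fdx1 and Por, and higher levels of 0, in a comparison where 21.9% of all genes were called and 10.6% were lower. Star, Cyb5a and Tspo did not pass. The median of the 8 genes was -0.37 and that of all genes -0.00. Library by library, the groups did not overlap for 7 of the 8 genes with IL-1β against control (44.2% of all genes), for 8 with LPS against control (38.3%) and for 6 with LPS against IL-1β (21.6%).

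**Figure D2:**
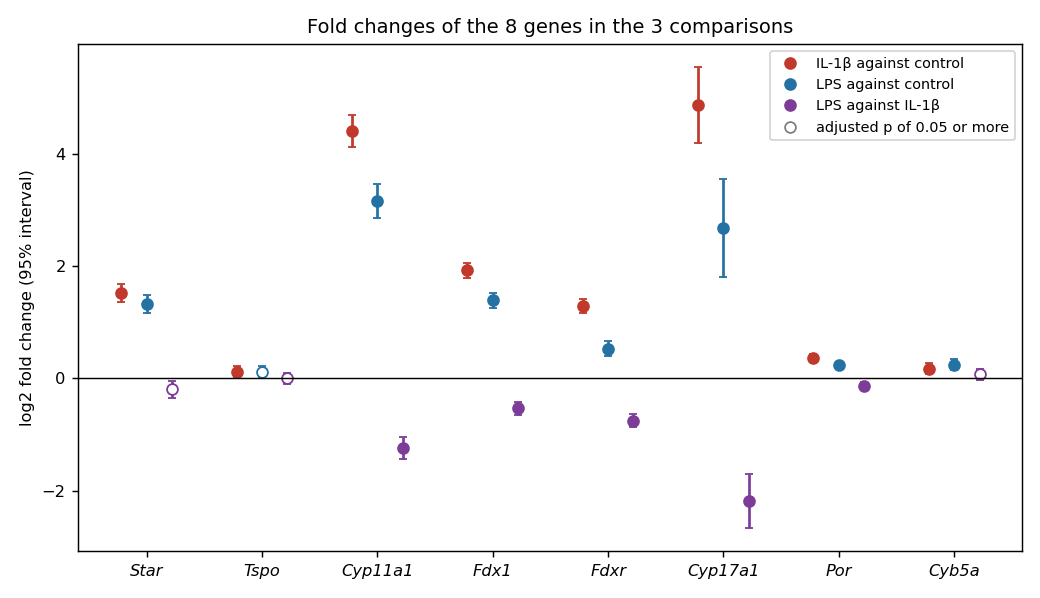
Log2 fold change of each gene in the 3 comparisons, with 95% intervals from the quasi-likelihood fit. Red points are IL-1β against control, blue points LPS against control and purple points LPS against IL-1β, and open points have an adjusted p of 0.05 or more. Cyp11a1 and Cyp17a1 stand highest in both treatments, at 4.40 and 4.86 with IL-1β, and lie furthest below 0 for LPS against IL-1β, at -1.24 and -2.19.

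Ratios of 2 genes' counts within a library asked whether the RNAs of different steps moved by the same amount. Such a ratio needs no scaling between libraries. It also holds the lengths of both transcripts, so only its change between groups is read. Of 21 tests (7 pairs of genes in 3 comparisons, two-sided exact permutation test with 4 libraries against 4 and 70 arrangements), 16 reached the smallest p possible, 0.0286, which is 0.0375 after adjustment over the 21. A ratio reaches it only where the libraries of the 2 groups do not overlap. Levels of single genes did not overlap for 44.2%, 38.3% and 21.6% of all genes in the 3 comparisons. The share over other pairs of genes was not computed, and the 21 tests share libraries and genes.

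Cyp11a1 rose more than Star. Its log2 ratio to Star went from -5.30 ± 0.04 (SD, n = 4) in control to -2.43 ± 0.10 with IL-1β, a 7.30-fold rise, and to -3.48 ± 0.25 with LPS, a 3.53-fold rise. LPS libraries were all below IL-1β libraries for this ratio (-1.05, exact permutation p = 0.0286, adjusted p = 0.0375). Ferredoxin rose less than the enzyme it serves: the log2 ratio of Fdx1 to Cyp11a1 was 1.92 ± 0.14 in control, -0.55 ± 0.09 with IL-1β and 0.16 ± 0.29 with LPS, and the groups did not overlap. The ratio of Fdxr to Fdx1 fell from 0.29 ± 0.05 to -0.35 ± 0.07 with IL-1β and to -0.57 ± 0.28 with LPS. Between the treatments it overlapped (-0.22, exact permutation p = 0.314, adjusted p = 0.330), with LPS 3 and 4 at -0.84 and -0.79 and LPS 1 and 2 at -0.40 and -0.27.

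Por rose far less than Cyp17a1. The log2 ratio of Por to Cyp17a1 dropped from 7.23 ± 0.30 in control to 2.79 ± 0.26 with IL-1β, 21.8-fold, and to 4.91 ± 0.57 with LPS, 4.99-fold. The ratio of Cyp17a1 to Cyp11a1 did not pass the test against control. Its log2 value was -2.70 ± 0.24 in control, -2.29 ± 0.19 with IL-1β (difference 0.41, exact permutation p = 0.0571, adjusted p = 0.0667) and -3.30 ± 0.40 with LPS (-0.60, p = 0.0571 by the same permutation test), neither of which passed. Between the treatments it differed, with all LPS libraries 1.01 lower on average on the log2 scale (exact permutation p = 0.0286, adjusted p = 0.0375). The ratio of Cyb5a to Por fell by 0.19 with IL-1β. With LPS it differed from control by 0.01 (exact permutation p = 0.83), and LPS libraries were all above IL-1β libraries, by 0.20. The ratio of Tspo to Star fell 2.65-fold with IL-1β and 2.31-fold with LPS. With LPS 3 and 4 left out, the log2 differences of LPS from control were 2.01 for Cyp11a1 to Star and -1.16 for Tspo to Star. For the carriers they were -1.98 for Fdx1 to Cyp11a1, -0.62 for Fdxr to Fdx1 and 0.02 for Cyb5a to Por. For Cyp17a1 they were -0.30 to Cyp11a1 and -2.72 for Por to Cyp17a1. The difference of Cyb5a to Por was small with and without these libraries, and the other ratios kept their direction. Against IL-1β the difference of Fdxr to Fdx1 went from -0.22 to 0.02 and that of Cyp17a1 to Cyp11a1 from -1.01 to -0.71 when both libraries were left out. Cyp11a1 to Star went from -1.05 to -0.86, Fdx1 to Cyp11a1 from 0.71 to 0.49 and Por to Cyp17a1 from 2.13 to 1.73. Tspo to Star went from 0.198 to 0.245 and Cyb5a to Por from 0.198 to 0.214.

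**Figure D3:**
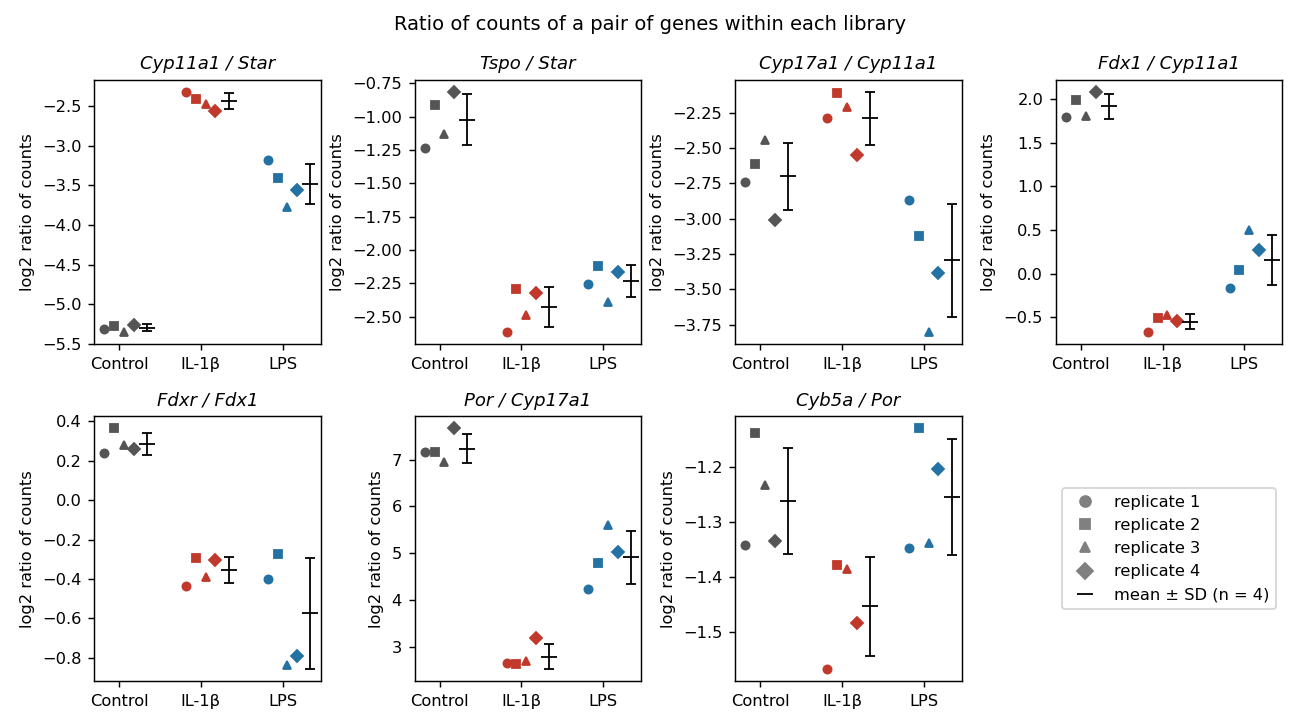
Log2 ratio of the counts of 2 genes within each library, 1 panel for each of the 7 pairs, with symbols for replicate libraries 1 to 4 and bars for the mean ± SD (n = 4). The vertical axes differ between panels and do not start at 0. The groups are separate for Cyp11a1 to Star and Por to Cyp17a1, while control and LPS libraries overlap for Cyb5a to Por.

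Within groups the 8 genes varied by different amounts. Por was the most even, with coefficients of variation of 1.80% in control, 3.55% with IL-1β and 2.16% with LPS, and Cyp17a1 the least even, at 18.9%, 16.7% and 40.3%. Counting error alone gives 26.5%, 5.06% and 10.3% for Cyp17a1 and 2.12%, 1.94% and 1.94% for Por, so in control neither gene varied beyond it. Some orders recurred by replicate number in all 3 groups. Library 1 was the highest of its group for Cyp11a1 and Por, library 2 for Cyb5a and library 4 for Tspo. In the LPS group library 1 was also the highest for Cyp17a1, and library 3 the lowest for both Cyp11a1 and Cyp17a1. Star and Fdx1 showed another order in the same libraries, with LPS 3 the highest and LPS 2 the lowest. Whether culture, cell makeup or library handling differed between these libraries was not tested.

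**Figure D4:**
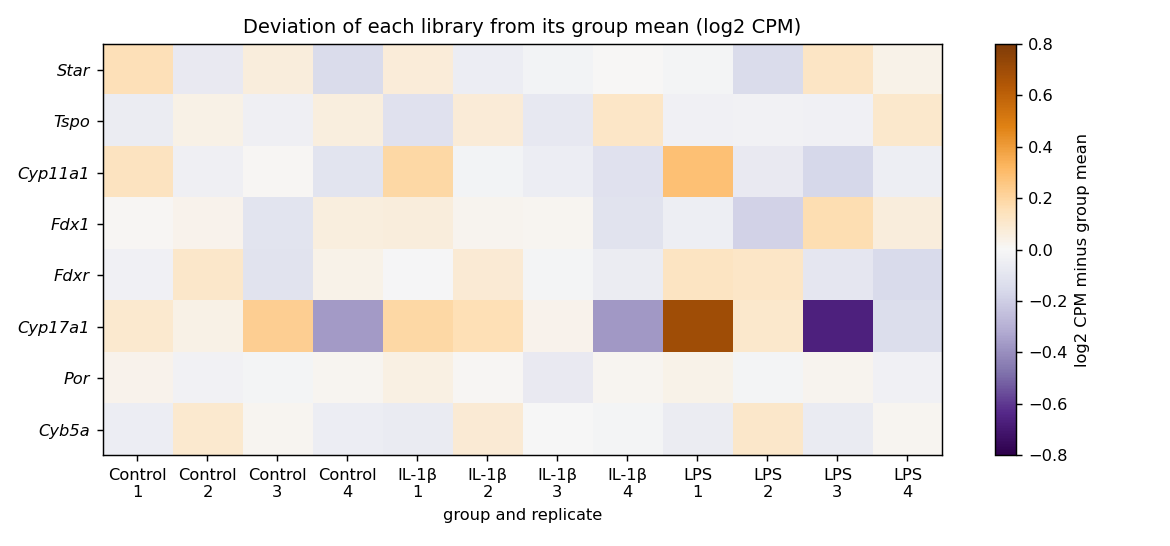
Deviation of each library from the mean of its group for the 8 genes, as log2 CPM minus the group mean. Rows are genes and columns the 12 libraries, with orange above and purple below the mean. Cyp17a1 carries the darkest cells, above the mean in LPS 1 and below it in LPS 3, and the Por row is nearly white.

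Likeness of profile was measured for each gene as the root mean square difference of its centred log2 CPM from that of 11523 other tested genes over the 12 libraries, smaller being more alike. Star was closest to Ahr (0.08), the gene of the aryl hydrocarbon receptor, Osmr (0.09), the gene of the oncostatin M receptor, and Clmp (0.09), an adhesion molecule gene. Cyp11a1 was closest to A2m (0.17), which encodes the protease inhibitor alpha-2-macroglobulin, then to Alox15 (0.31) and Serpina3n (0.34). A2m and Cyp11a1 are different genes with counts of similar size. Cyp17a1 had no neighbour nearer than 0.47, and Cyp11a1 (0.48) ranked behind Alox15. Fdx1 was closest to Aass (0.09), Slco5a1 (0.13) and Steap1 (0.14), and Fdxr to Pde2a (0.10), Dach1 (0.10) and Isyna1 (0.11). Por was closest to Rarg (0.03), Lrp12 (0.04) and Srebf2 (0.04), Cyb5a to Ccar2, Rab2b and Apip, and Tspo to Asph, Adamts5 and Thoc3. Among the 8 genes themselves, the nearest pairs were Cyb5a and Tspo (0.09), Por and Cyb5a (0.12), Por and Tspo (0.13) and Star and Fdx1 (0.20). The measure is not scaled by the size of change, so genes that change little, such as Cyb5a, Tspo and Por, lie close to each other for that reason alone.

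Genes that serve the same steps were counted in 8 lists, to be read beside the 47.7% of all genes called with IL-1β (24.7% higher, 23% lower) and the 42.5% with LPS (22.5% higher, 20% lower). Among 17 genes of cholesterol delivery to mitochondria, 7 were higher and 3 lower with IL-1β, and 6 were higher and 3 lower with LPS, with medians of 0.09 and 0.04. Scp2, a sterol carrier, rose by 0.97 ± 0.04 with IL-1β and 0.72 ± 0.04 with LPS. Lipe, the lipase that frees cholesterol from its esters, rose by 0.72 ± 0.08 and 0.45 ± 0.08, and the lipoprotein receptor Scarb1 by 1.09 ± 0.05 and 0.48 ± 0.05. Npc2, a lysosomal cholesterol carrier, was lower (-0.18 ± 0.03 and -0.10 ± 0.03).

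Later steroid enzymes were tested in 12 cases, of which 9 were higher and 2 lower with IL-1β and 7 higher and 2 lower with LPS. The row of Hsd3b, which oxidises pregnenolone and related steroids, stood at 93.3 ± 6.03 CPM in control, 707 ± 62.8 with IL-1β and 298 ± 31.2 with LPS (SD, n = 4), and Hsd3b5 rose by 3.04 ± 0.09 and 1.84 ± 0.09. These copies are similar in sequence, so their separate counts are uncertain. Hsd17b7 rose by 0.64 ± 0.05 with IL-1β, and Akr1c14, which reduces steroids, by 0.55 ± 0.04 with IL-1β and 0.78 ± 0.04 with LPS.

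The other users of the same electron carriers did not move as one. Of 4 other mitochondrial P450 genes tested, Cyp11b2 (2.04 ± 0.15 and 1.91 ± 0.15) and Cyp11b3 (2.33 ± 0.17 and 2.33 ± 0.17) rose with both treatments from 1.1 ± 0.153 and 0.628 ± 0.118 CPM in control (SD, n = 4), and these closely related copies may share reads. Cyp27a1, a sterol hydroxylase, had values of -0.10 ± 0.04 and 0.10 ± 0.04, and Cyp27b1, which activates vitamin D, 0.18 ± 0.22 and -0.17 ± 0.22, and neither was called. With no filter on low counts, 3 of this list were higher and 1 lower with IL-1β, and 4 were higher with LPS. Of 10 other users of Por, 4 were higher and 3 lower with IL-1β, and 3 were higher and 2 lower with LPS. Cyp7b1, which hydroxylates oxysterols, rose by 2.33 ± 0.08 and 2.80 ± 0.07, Cyp1b1, which hydroxylates oestrogens, by 0.89 ± 0.05 and 1.33 ± 0.05, and Cyp51 of cholesterol synthesis by 0.40 ± 0.04 and 0.21 ± 0.04, whereas Cyp2u1 was lower (-0.85 ± 0.05 and -0.80 ± 0.05).

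Related carriers and NADPH suppliers were divided, with 4 higher and 4 lower of 13 in both treatments. H6pd, which makes NADPH in the endoplasmic reticulum, rose by 0.54 ± 0.05 with IL-1β and 0.50 ± 0.05 with LPS, and malic enzyme Me1 by 0.37 ± 0.03 and 0.19 ± 0.03. The cytochrome b5 reductase gene Cyb5r3 (-0.22 ± 0.03 and -0.13 ± 0.03) and the isocitrate dehydrogenase gene Idh1 (-0.17 ± 0.03 and -0.25 ± 0.03) were lower.

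P450 enzymes carry haem and ferredoxin an iron-sulphur cluster. Of 8 genes of haem synthesis, 4 were higher with IL-1β and 3 with LPS, and 0 were lower. The shares called were near the 47.7% and 42.5% of all genes, and scaling by library size alone made 7 higher with IL-1β. Alas1, the rate-limiting enzyme of haem synthesis, rose by 0.61 ± 0.03 with IL-1β and 0.23 ± 0.03 with LPS, and Cpox by 0.50 ± 0.05 and 0.48 ± 0.05. Uros rose by 0.25 ± 0.09 and 0.28 ± 0.09, and Urod rose by 0.18 ± 0.05 with IL-1β and was not called with LPS (0.11 ± 0.05). Of 9 genes of iron-sulphur cluster assembly, 3 were higher and 1 lower with IL-1β. Nfs1, the cysteine desulfurase that supplies sulphur, rose by 0.42 ± 0.05, Iba57 by 0.36 ± 0.08 and Glrx5 by 0.29 ± 0.06, and the chaperone gene Hspa9 was lower (-0.21 ± 0.04). The 3 higher with LPS came down to 1 when control 1, 2 or 3 or LPS 1 or 2 was left out, and to 2 without LPS 3 and 4.

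Upstream receptors and regulators numbered 18, of which 9 were higher and 1 lower with IL-1β and 9 higher and 4 lower with LPS. Lhcgr, the receptor for luteinizing hormone, was at 2.02 ± 0.200 CPM in control, 5.52 ± 0.324 with IL-1β and 2.61 ± 0.704 with LPS (SD, n = 4). It rose with IL-1β (1.45 ± 0.14) and was not called with LPS (0.38 ± 0.16, adjusted p = 0.0535). Nr4a1, a nuclear receptor of steroid-producing cells, rose by 2.09 ± 0.07 and 1.47 ± 0.07, and Nr0b1, a repressor of steroid synthesis genes, by 1.27 ± 0.11 and 0.45 ± 0.11. Gata4 was lower in both (-0.31 ± 0.03 and -0.34 ± 0.03). Against IL-1β, LPS gave lower levels of 7 of these 18 genes and of 4 without IL-1β 2.

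**Figure D5:**
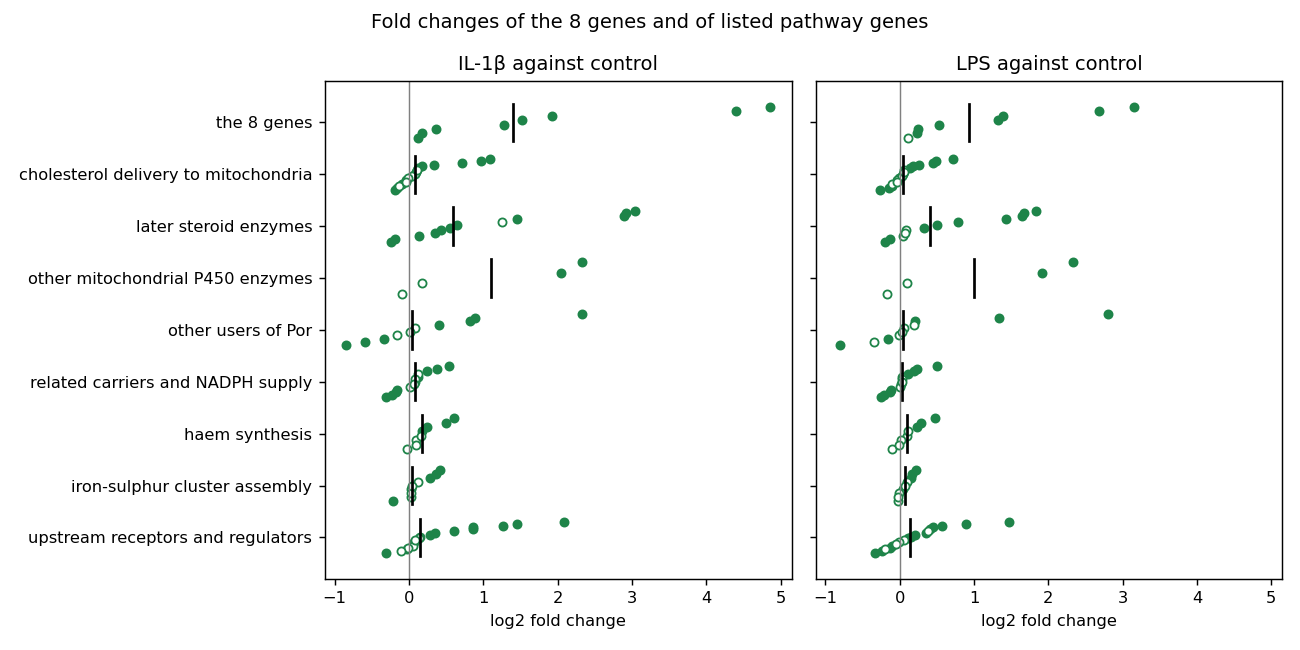
Log2 fold changes of the 8 genes and of the genes tested in 8 related lists, IL-1β against control on the left and LPS against control on the right. Each point is a gene, filled where its adjusted p is under 0.05, and black bars are medians. The 8 genes have a median of 1.40 with IL-1β and 0.93 with LPS, and the lists of cholesterol delivery, Por users and carriers have medians of 0.09 or less.

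Markers of other cells also moved between the groups. Endothelial markers followed the order of most of the 8 genes: 13 of 13 were higher with IL-1β and 12 with LPS, and 13 of 13 were lower with LPS than with IL-1β. Their summed level was 208 to 242 CPM in control, 445 to 502 with IL-1β and 307 to 414 with LPS. Between LPS and IL-1β 10.6% of all genes tested were lower and 11.3% higher. In that comparison granulosa markers gave 4 lower and 0 higher, theca-interstitial markers 8 and 1, and macrophage markers 9 and 1. Smooth muscle markers gave 2 lower and 4 higher, and adrenocortical markers 1 and 0. Of 12 granulosa markers 7 were higher and 3 lower with IL-1β, and 4 were higher and 2 lower with LPS, with sums of 1602 to 1685, 1892 to 2235 and 1663 to 1900 CPM. Gja1, Serpine2 and Inha made up most of these sums. Smooth muscle markers were lower in 9 of 11 with IL-1β and in 10 with LPS (sums 5335 to 5780, 1777 to 2019 and 2112 to 2375 CPM). Macrophage markers were lower in 11 of 16 and in 12 (sums 166 to 179, 114 to 124 and 107 to 116 CPM), and 2 were higher in each. Of 4 adrenocortical markers tested 2 were higher in both treatments, with sums of 2.69 to 4.10, 9.83 to 10.7 and 7.72 to 8.85 CPM. In each of these lists 0 markers were at 0 in all libraries of a group. The 14 theca-interstitial markers, 3 of which are among the 8 genes, gave 9 higher and 3 lower with IL-1β and 7 higher and 4 lower with LPS. Their summed level went the other way, from 8871 to 10092 CPM in control to 6485 to 7261 with IL-1β and 5368 to 6122 with LPS. Most of that sum was the collagen genes Col1a1 and Col1a2, so it says little about the other markers of the list. Col1a1 was at a mean of 4772 CPM in control, 3337 with IL-1β and 2676 with LPS, and Col1a2 at 4025, 2335 and 2083. The part of changed cell makeup in the levels of the 8 genes was not tested.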

How the data were processed

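Polyadenylated RNA was sequenced from 12 libraries in 3 groups of 4 (TruSeq Stranded mRNA, per the labels' protocols). The authors deposited raw read counts per gene symbol in 1 table, with no normalization. Rnor_6.0, TopHat2 2.1.1, SAMtools and DESeq2 are named in the submitters' processing notes. The counting program, annotation and strand setting were not given in the sources used here.

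In R 4.3.3, edgeR 4.0.16 kept 17330 of 30045 genes (filterByExpr), with TMM scaling, 1 model of the 3 groups over all 12 libraries (glmQLFit, robust) and quasi-likelihood tests with Benjamini-Hochberg adjustment, and 0.05 was the threshold on the adjusted p. CPM used TMM-scaled totals. Ratios took counts plus 0.5 and an exact permutation test (SciPy 1.17.1). The procedure was tested on simulated data.

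The 8 genes, the lists and the tests were chosen with earlier results of these data known. Named genes were the 8 genes and the 4 tested genes of each pathway list with the smallest p. The 3 nearest profiles of each gene (mean of at least 2 CPM) were also named. Insl3, Fdx1l, Col1a1, Col1a2, Gja1, Serpine2, Inha, Fshr, Amh, Mrap, Mc2r, Cyp19a1 and Cyp21a1 were picked after their values were seen. Alternatives were other scalings and filters, DESeq2 1.42.0, limma-voom (limma 3.58.1), fits on 8 libraries, a replicate block and each library left out. Removal of LPS 3 and 4 and the AGGTCA search were added after seeing the data. Of the listed genes, Hsd3b1, Cyp11b1, Pgd and Lyrm4 were not analysed here.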

Additional observations from a re-analysis of the deposited data

Results flagged for a closer look

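In 45 groups of 4 libraries (levels of the 8 genes and their ratios), a library counted as far from the others when its gap to the nearest took more of the group's range than Dixon's 95% critical value for 4 values. Chance gives about 1 such group in 20, and 2 were found. Tspo in LPS library 4 stood at 80.5 CPM, above 73.0 to 73.4 CPM in the other LPS libraries. The log2 ratio of Por to Cyp17a1 in IL-1β library 4 was 3.18, above 2.64 to 2.69 in the other IL-1β libraries, and that library had 276 Cyp17a1 counts where the others had 404 to 455.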

How the results depend on the processing

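Of 448 values of the 8 genes under the alternatives, 423 kept their direction and their side of the threshold. The number of the 8 genes called stayed at 7 to 8, 7 to 8 and 5 to 6 in the 3 comparisons. Over the same settings 7599 to 8676, 6504 to 7907 and 1979 to 4256 of all genes tested were called. The values that changed sign were all Tspo between LPS and IL-1β (-0.00): 0.0017 with no low-count filter, 0.0007 with limma-voom, and -0.0406 to 0.0334 with single libraries left out. The Tspo call with IL-1β was also lost with DESeq2 (0.11), and the difference of Star between LPS and IL-1β was called with DESeq2 (-0.20) and limma-voom (-0.20). Without LPS 3 and 4, chosen after seeing the data, 1979 genes differed between LPS and IL-1β in place of 3791. Neither the part of the fewer libraries in this drop nor any other cause was tested. Scaling by library size alone made 64.1% of the calls with IL-1β higher in place of 51.7%, and 63.4% in place of 53.0% with LPS.

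Whether replicate numbers pair the libraries was not settled. Correlations of deviations between same-numbered libraries were low, with 1 of 12 above 0.1 (0.12). Even so, 8 of 12 libraries correlated best with a library of their own number. That is more than an even draw among the libraries of the other groups would give. The main tests, those of the ratios included, treated the libraries as unpaired. With the replicate block 8544, 7730 and 4256 genes were called in place of 8261, 7358 and 3791, and 8, 8 and 6 of the 8 genes, as Tspo with LPS (0.12) and the Star difference between LPS and IL-1β (-0.20) passed under the block. The block left 0 of the 16 called ratios, because an exact test on 4 pairs cannot give a p under 0.125. Levels per coding length were planned and not run, since no lengths were used here. Depth limited Cyp17a1 in control, at 12 to 18 counts a library.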

Other observations

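Genes known from the adrenal cortex were measured at low levels. Mrap, a partner of the corticotropin receptor, went from 0.905 ± 0.153 CPM in control to 4.49 ± 0.889 with IL-1β and 2.60 ± 0.280 with LPS (SD, n = 4; log2 fold changes 2.31 ± 0.17 and 1.53 ± 0.18, SE). The corticotropin receptor gene Mc2r was at 0.529 ± 0.203, 0.311 ± 0.0795 and 0.407 ± 0.0956 CPM and was not called. Cyp21a1, which leads to corticosteroids, was at 0.260 ± 0.106, 0.251 ± 0.108 and 0.217 ± 0.0918 CPM and was too low to be tested. Cyp19a1, the aromatase that turns androgen into oestrogen, was at 0.127 ± 0.106 CPM in control, 0.384 ± 0.0946 with IL-1β and 0.377 ± 0.127 with LPS, from 0 to 8, 6 to 13 and 5 to 14 counts a library, and was called higher in both (1.46 ± 0.46 and 1.43 ± 0.46, adjusted p = 0.0107 and 0.0123 by edgeR's quasi-likelihood test).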
